A study of Mus musculus with 15 samples.

Results

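The enzymes that turn squalene epoxide into cholesterol by way of lanosterol were followed in the adrenal glands of mice treated with dexamethasone and then allowed to recover. The set holds 9 genes, chosen by name as lanosterol synthase and the later steps of the route. Of the 21439 genes measured with a single symbol, these 9 each had 1 probe set on the array, and none of these probe sets was shared with another gene. They are Lss (probe set 17234552), Cyp51 (17445308), Tm7sf2 (17361921), Msmo1 (17509629), Nsdhl (17535434), Hsd17b7 (17229466), Ebp (17540050), Sc5d (17525955) and Dhcr7 (17485357). On build GRCm38.p6 (RefSeq) the genes lie apart: Lss at chr10:76531565-76557139, Cyp51 at chr5:4080674-4104697, Tm7sf2 at chr19:6062821-6067850, Msmo1 at chr8:64718123-64733578, Nsdhl at chrX:72918521-72958528, Hsd17b7 at chr1:169949535-169969242, Ebp at chrX:8185329-8193512, Sc5d at chr9:42251592-42264300 and Dhcr7 at chr7:143823167-143848410.

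All mice were wild-type C57BL/6J males, given as 6 weeks old for each sample. The control group (n = 4 arrays) was taken before any treatment. The withdrawal group (n = 3) was taken when dexamethasone, given with the drinking water for 14 days, was stopped, and the remaining groups were taken 3 days (n = 4) and 7 days (n = 4) after the drug was stopped. Controls were collected before treatment began, so days elapsed and treatment cannot be told apart in any comparison with them. The titles call the samples biological replicates, and whether glands of several animals were pooled is not given in the sources used here.

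Dexamethasone is a synthetic glucocorticoid that lowers pituitary ACTH. ACTH drives the adrenal cortex to make corticosterone from cholesterol, which cortical cells take up from lipoproteins, release from stored esters or make themselves. Genes of cholesterol synthesis are turned on together by the transcription factor SREBP-2 when the sterol content of the endoplasmic reticulum is low, and SREBP acts at promoters with the partner factors NF-Y and Sp1. Lanosterol, the first sterol of the route, has a ring system that is trimmed of methyl groups and whose double bonds are shifted and reduced to give cholesterol.

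Because SREBP acts with NF-Y and Sp1, the promoters were searched on both strands for the letters that NF-Y binds, CCAAT, and those that Sp1 binds, GGGCGG. The windows run from 250 bases before to 50 bases after each annotated start (RefSeq, build GRCm38.p6). All 9 genes matched the promoter table, with 11 windows in all, since Dhcr7 has 3 annotated starts. Each of the 9 genes had a window that holds both motifs, as did 14.5% of all genes in the promoter table. By window, 9 of the 11 member windows held both, against 12.8% of all 32851 windows of the same length. Among the 25277 windows with a GC content of at least 45.3%, the lowest of the 9 member windows that hold both, the share was 16.3%. That lowest value is of Ebp, and the other member windows with both had 59.3% to 71% GC. The 16.3% is thus not a share at the GC content of most members. CCAAT was in 37.4% of all windows and GGGCGG in 35.7%, each counted with or without the other. Neither motif overlapped the other in the member windows. Of the letters that SREBP itself binds, only exact matches to TCACNCCAC and the E-box-like TCACNTGA were searched for. These were found in 0 of the 11 windows, against 1.24% and 4.18% of all windows. Sites that depart from these patterns would have been missed, so 0 matches does not show that SREBP sites are absent. These letter matches describe the sequence and were not tested for binding.

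Chosen after the values were seen, the windows shown are those of the enzymes with the largest fall at withdrawal (Dhcr7), the largest rise by day 3 (Tm7sf2) and the highest mean excess over control at day 3 (Cyp51). The window of Ebp, whose differences did not pass in the main fit, is also shown. Capitals mark CCAAT and GGGCGG or their complements. The Dhcr7 window is that of the third annotated start, chr7:143829964-143830263 on the plus strand. The others are on the minus strand, Tm7sf2 at chr19:6067801-6068100, Cyp51 at chr5:4104648-4104947 and Ebp at chrX:8193463-8193762.
Dhcr7: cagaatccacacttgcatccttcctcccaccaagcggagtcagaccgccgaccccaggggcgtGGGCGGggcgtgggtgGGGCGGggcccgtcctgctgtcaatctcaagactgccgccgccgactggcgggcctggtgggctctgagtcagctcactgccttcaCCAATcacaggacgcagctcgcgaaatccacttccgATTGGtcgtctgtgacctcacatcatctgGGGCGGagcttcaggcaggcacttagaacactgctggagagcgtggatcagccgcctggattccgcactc
Tm7sf2: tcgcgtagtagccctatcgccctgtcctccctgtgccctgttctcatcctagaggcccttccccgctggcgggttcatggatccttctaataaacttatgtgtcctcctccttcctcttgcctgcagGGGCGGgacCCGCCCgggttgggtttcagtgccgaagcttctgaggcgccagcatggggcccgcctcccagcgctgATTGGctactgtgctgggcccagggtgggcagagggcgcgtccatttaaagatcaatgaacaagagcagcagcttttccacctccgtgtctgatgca
Cyp51: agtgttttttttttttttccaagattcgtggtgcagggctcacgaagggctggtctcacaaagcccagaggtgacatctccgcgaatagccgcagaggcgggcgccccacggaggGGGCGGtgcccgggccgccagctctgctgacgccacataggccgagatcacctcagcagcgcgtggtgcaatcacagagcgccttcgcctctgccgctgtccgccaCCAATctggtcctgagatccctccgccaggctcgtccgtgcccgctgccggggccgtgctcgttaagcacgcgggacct
Ebp: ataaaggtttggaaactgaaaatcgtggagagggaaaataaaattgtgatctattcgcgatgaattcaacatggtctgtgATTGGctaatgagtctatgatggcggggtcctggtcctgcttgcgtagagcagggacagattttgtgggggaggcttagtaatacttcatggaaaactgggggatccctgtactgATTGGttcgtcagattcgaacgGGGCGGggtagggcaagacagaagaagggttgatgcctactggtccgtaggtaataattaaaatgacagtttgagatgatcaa

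In Tm7sf2 the CCAAT complement lies from -47 to -43, a GGGCGG from -123 to -118 and its complement from -114 to -109, counted from the start. In Cyp51 the CCAAT lies from -29 to -25, with a single GGGCGG from -135 to -130. The third Dhcr7 window has 2 CCAAT matches and 3 of GGGCGG, while the first has a single GGGCGG and the second neither motif. Ebp, with the lowest GC content of the 9 windows that hold both, has 2 CCAAT matches and 1 GGGCGG.

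**Figure D1:**
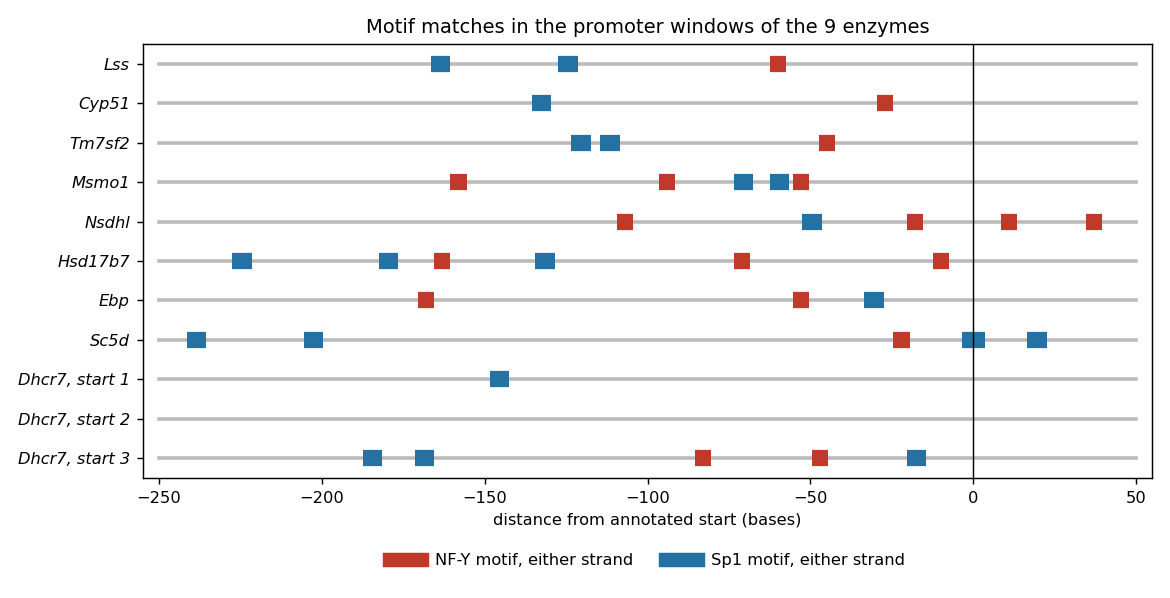
Matches to the NF-Y motif (red) and the Sp1 motif (blue) in the promoter windows of the 9 enzymes, by distance from the annotated start in bases. Every gene has at least 1 window with both, and Dhcr7 has them together at the third of its 3 starts alone.

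The deposited values are log2 expression after robust multi-array averaging (RMA), and precision is limited by how many arrays each group has. Array medians over the 32736 probe sets lay between 1.55 and 1.64. All 9 enzymes were above the median gene (2.44) in every group. The tissue carried its defining markers: the mean level of 8 cortical genes such as Cyp11a1 and Star was 9.39 to 9.45 in control, 8.83 to 8.99 at withdrawal, 9.31 to 9.50 at day 3 and 9.37 to 9.44 at day 7. Kidney markers were below the median gene in all groups (6 of 6). Liver markers were uneven: the mean of 5 (Alb, Apoa1, Ttr, Apoc3, Fgb) stood above 4 on control replicate 4, day 3 replicates 1 and 3, and day 7 replicates 1, 2 and 4, and reached 6.03 on day 3 replicate 1, against 1.95 to 2.66 on the other 9 arrays. Liver cells also make cholesterol. The part of these transcripts in the results was not tested, and each count of members that passed is also given without those 6 arrays, which leaves 3 control, 3 withdrawal, 2 day 3 arrays and 1 day 7 array. Whole glands were measured, so fewer cells of a type and less RNA per cell cannot be told apart.

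The first comparison asks how the route stood at the end of dexamethasone. At withdrawal all 9 enzymes had lower means than in control, and 4 of them fell: Dhcr7 4.13-fold, Tm7sf2 2.32-fold, Lss 2.04-fold and Msmo1 1.54-fold. The remaining 5 did not pass. Limma called 4.3% of all genes in this comparison, and 1.81% of all genes as lower (Benjamini-Hochberg adjusted p below the threshold of 0.05). The median member differed by -0.62 on the log2 scale, and the median gene by -0.01.

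Dhcr7, the reductase that turns 7-dehydrocholesterol into cholesterol, read 8.80, 8.47, 8.61 and 8.45 on the control arrays and 6.45, 6.69 and 6.46 on the withdrawal arrays. The groups lay far apart. The difference of -2.05 ± 0.16 (SE) was the tenth largest fall of all genes by size (limma, adjusted p = 1.1e-05). Tm7sf2, which reduces the double bond that demethylation leaves in the sterol ring, read 5.36, 4.54, 4.99 and 5.71 in control and 4.00, 4.35 and 3.46 at withdrawal. The lowest control array stood just above the highest withdrawal array. The difference was -1.22 ± 0.25 (limma, adjusted p = 0.0129).

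Lss, the cyclase that closes squalene epoxide into lanosterol, read 5.17, 4.56, 4.72 and 4.72 in control and 3.71, 3.57 and 4.01 at withdrawal. Every withdrawal array lay below every control array. The difference was -1.03 ± 0.21 (limma, adjusted p = 0.0129). Msmo1, the oxidase that starts the removal of the paired methyl groups of the ring, read 7.40, 7.14, 7.40 and 7.40 in control and 6.60, 6.77 and 6.77 at withdrawal. These groups did not overlap either, and the difference was -0.62 ± 0.15 (limma, adjusted p = 0.0333). The Msmo1 call was lost in 6 of the 7 fits that left out a single array (highest adjusted p = 0.114, without withdrawal replicate 1).

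The enzymes that did not pass included the P450 that removes the first methyl group, Cyp51, at 5.65, 5.13, 5.41 and 5.29 in control and 4.33, 4.67 and 4.74 at withdrawal. Its groups did not overlap, but the difference of -0.79 had a 95% interval from -1.54 to -0.05 (limma, adjusted p = 0.259). Ebp, the isomerase that moves a ring double bond, differed by -0.41 (interval -0.72 to -0.09), and its groups did not overlap. Hsd17b7, the ketoreductase that acts with Nsdhl in removing the paired methyl groups, differed by -0.37 (-0.86 to 0.11). Sc5d, the desaturase that makes 7-dehydrocholesterol, differed by -0.34 (-0.73 to 0.04). Nsdhl, the dehydrogenase of the methyl removal complex, differed least, by -0.11 (-0.51 to 0.29). In all, the groups did not overlap for 6 of the 9, each lower at withdrawal, and for 6.94% of all genes in that direction.

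Without the 6 arrays with liver transcripts 2 members fell, Dhcr7 (-2.09) and Lss (-1.06), and Tm7sf2 stood at -1.03 (limma, adjusted p = 0.123). Without withdrawal replicate 2 or 3 the count was also 2. Of 12 macrophage markers 10 rose at withdrawal, where limma called 2.49% of all genes as higher, and their mean level was 5.52 to 5.73 in control and 7.20 to 7.59 at withdrawal. Of the 8 measured medulla markers 2 rose, with a mean level of 8.29 to 8.70 in control and 8.88 to 8.96 at withdrawal. Of the 8 cortical markers 5 fell. The 8 endothelial markers all had lower means at withdrawal and 1, Kdr, fell (-0.77; limma, adjusted p = 0.016), with a mean level of 6.49 to 6.65 in control and 6.16 to 6.20 at withdrawal. The part of these changes in the fall of the enzymes was not tested.

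**Figure D2:**
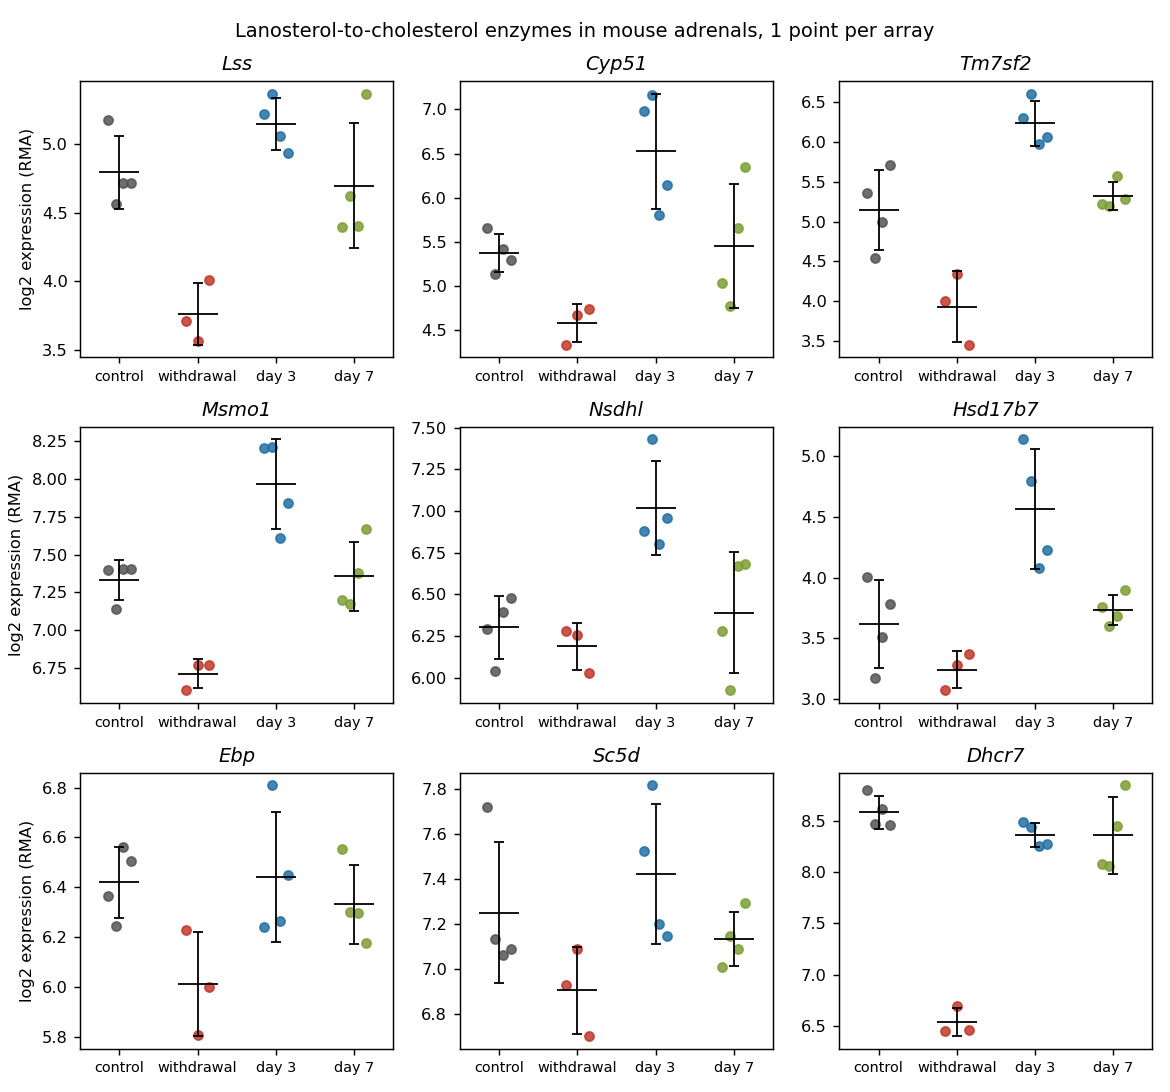
Log2 expression of each enzyme on every array, by group, with the group mean and SD in black (n = 4, 3, 4 and 4); the vertical scale differs between panels and does not start at 0. Withdrawal has the lowest mean in all 9 panels and day 3 the highest in 8, while Dhcr7 has its highest mean in control.

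By day 3 after withdrawal, 7 of the 9 enzymes had risen above the withdrawal level and 2, Ebp and Sc5d, did not pass. Limma called 2.25% of all genes in this comparison, 1.37% as higher and 0.886% as lower. In all 9 every day 3 array lay above every withdrawal array, as was so for 6.39% of all genes. The median member differed by 1.31 and the median gene by -0.01.

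Tm7sf2 had the largest difference, with 6.30, 6.61, 5.97 and 6.06 on the day 3 arrays, a rise of 2.30 ± 0.25 or 4.92-fold (limma, adjusted p = 0.000357). Only 5 other genes had a larger rise in the fit. Cyp51 reached 6.98, 7.17, 5.81 and 6.15, a rise of 1.95 ± 0.35 or 3.85-fold (limma, adjusted p = 0.00868). Day 3 replicates 1 and 2 were higher than replicates 3 and 4. Dhcr7 reached 8.48, 8.44, 8.25 and 8.28, a rise of 1.83 ± 0.16 or 3.55-fold (limma, adjusted p = 7.58e-05), and these arrays lay close together (SD 0.12).

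Lss stood at 5.22, 5.37, 5.06 and 4.94 and rose by 1.38 ± 0.21 (limma, adjusted p = 0.00349). The 3 enzymes that remove the paired methyl groups all rose. Hsd17b7 stood at 5.13, 4.80, 4.08 and 4.23 and rose by 1.31 ± 0.23 from 3.24 ± 0.16 (SD, n = 3) at withdrawal (limma, adjusted p = 0.00717). Msmo1 stood at 8.20, 8.22, 7.61 and 7.84 and rose by 1.26 ± 0.15 (limma, adjusted p = 0.000831). Nsdhl stood at 6.88, 7.43, 6.80 and 6.96 and rose by 0.83 ± 0.19 (limma, adjusted p = 0.0324). Nsdhl thus passed here although it had differed little at withdrawal, but its call was lost in 6 of the 7 fits without a single array (highest adjusted p = 0.116, without withdrawal replicate 3).

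Both enzymes that did not pass act one after the other late in the route. Ebp differed by 0.43 (interval 0.12 to 0.74; limma, adjusted p = 0.173) and Sc5d by 0.52 (0.13 to 0.90; adjusted p = 0.182). Without the 6 arrays with liver transcripts 4 members rose, Tm7sf2 (2.40), Cyp51 (2.08), Dhcr7 (1.82) and Msmo1 (1.32). Lss stood at 1.39 (adjusted p = 0.0633), Hsd17b7 at 1.27 (0.114) and Nsdhl at 1.01 (0.0798) in that fit. Within the day 3 group the highest reading was on replicate 2 (liver level 2.14) for 7 enzymes and on replicate 1 (liver level 6.03) for Hsd17b7 and Dhcr7. Macrophage markers were also lower at day 3 than at withdrawal (6 of 12 fell, mean level 6.42 to 7.01) and 4 of the 8 cortical and 2 of the 8 endothelial markers (Pecam1 and Erg) rose (mean endothelial level 6.55 to 6.71). Their part in the rise of the enzymes was not tested.

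Against control, the day 3 means were higher for 8 of the 9 enzymes, but 0 passed in limma, while 5 had an unadjusted p below 0.05 with day 3 higher, as did 5.28% of all genes. Limma called 0.131% of all genes here, 0.0886% as higher and 0.042% as lower, and without the 6 arrays with liver transcripts the count of members was again 0. With the trend and robust options of the moderated test 2 members passed, Tm7sf2 (adjusted p = 0.0477) and Msmo1 (adjusted p = 0.0484). The largest differences were Cyp51 at 1.15 (interval 0.46 to 1.84), Tm7sf2 at 1.08 (0.59 to 1.58), Hsd17b7 at 0.94 (0.49 to 1.39), Nsdhl at 0.72 (0.35 to 1.09) and Msmo1 at 0.63 (0.33 to 0.94). For these 5 every day 3 array lay above every control array, as held for 2.75% of all genes. The limma adjusted p-values of the 5 ran from 0.0805 for Tm7sf2 to 0.196 for Cyp51. Lss, Sc5d and Ebp differed by 0.35, 0.17 and 0.02, with overlapping groups. Dhcr7 was the member whose day 3 mean lay below control, by -0.22 (interval -0.54 to 0.11), and again the groups overlapped.

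**Figure D3:**
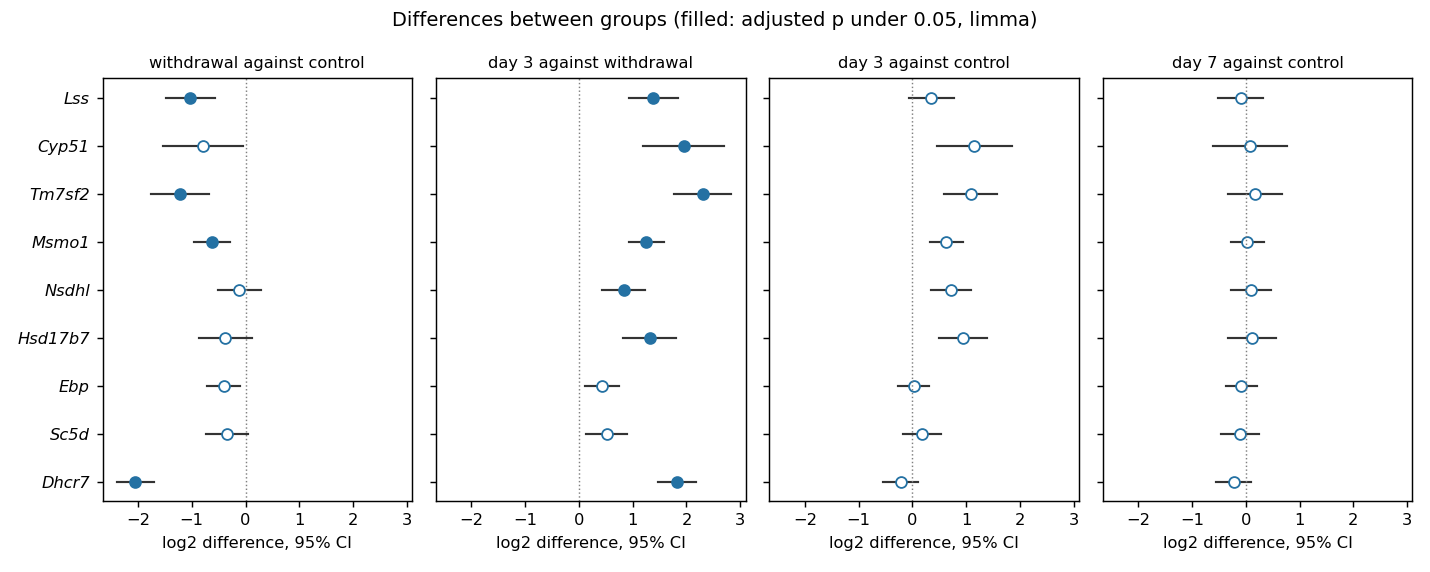
Differences on the log2 scale with 95% intervals from the model for 4 comparisons; filled points passed at an adjusted p of 0.05. The 4 filled points at withdrawal and the 7 at day 3 lie on opposite sides of 0, and none is filled against control at day 3 or day 7.

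At day 7 every enzyme had a mean within 0.23 of control on the log2 scale. Against control 0 of the 9 passed in limma and 0 had an unadjusted p below 0.05, as 5.95% of all genes did, with 0.0187% of all genes called (0.014% higher, 0.00466% lower), and with the trend and robust options the count was also 0. All 9 groups overlapped, while day 7 lay above control without overlap for 1.75% of all genes and below for 1.4%. Differences ran from -0.23 for Dhcr7 (interval -0.55 to 0.10) to 0.17 for Tm7sf2 (-0.33 to 0.66), with a median of 0.02. The widest interval was that of Cyp51, from -0.61 to 0.77, which overlaps the interval of its day 3 difference from control (0.46 to 1.84). Against withdrawal 4 were still higher, beside 1.88% of all genes called, 0.98% as higher and 0.905% as lower. Groups did not overlap for 6 members, and for 6.46% of all genes with day 7 higher. Dhcr7 stood 1.82 ± 0.16 above withdrawal, Tm7sf2 1.38 ± 0.25, Lss 0.94 ± 0.21 and Msmo1 0.65 ± 0.15 (limma, adjusted p from 7.97e-05 to 0.0463). The Msmo1 call was lost in all 7 fits without a single array (highest adjusted p = 0.145) and the Lss call in 4 of them (highest adjusted p = 0.153, without withdrawal replicate 2), so that 3 members passed in those fits, or 2 without withdrawal replicate 1 or 2 or day 7 replicate 2 or 4. Without the 6 arrays with liver transcripts, where day 7 is 1 array assumed to vary like the other groups, 1 member passed, Dhcr7 (1.91).

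Between day 7 and day 3 all 9 means were lower at day 7, but 0 members passed in limma, as 0% of all genes did, and 0 passed with the trend and robust options or without the arrays with liver transcripts. Of the members 6 had an unadjusted p below 0.05 with day 7 lower, as did 3.41% of all genes. Cyp51 differed by -1.07 (interval -1.77 to -0.38), Tm7sf2 by -0.92 (-1.41 to -0.42) and Hsd17b7 by -0.82 (-1.27 to -0.37). The groups did not overlap for Tm7sf2, Nsdhl and Hsd17b7, and for 1.74% of all genes with day 7 lower. Dhcr7 differed by -0.01 (-0.33 to 0.32), a difference whose sign turned (0.023) when each array was centred on its median.

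The order of the group means was the same for 5 enzymes (Cyp51, Tm7sf2, Msmo1, Nsdhl and Hsd17b7): day 3, day 7, control, withdrawal. In Lss, Ebp and Sc5d it was day 3, control, day 7, withdrawal. Dhcr7 ran control, day 3, day 7, withdrawal. Of the neighbours in these orders, those that passed at an adjusted p of 0.05 (limma) were control above withdrawal for Tm7sf2 and Msmo1 and day 7 above withdrawal for Lss and Dhcr7. By the arrays alone, neighbours also lay apart without overlap for Tm7sf2, Nsdhl and Hsd17b7 at the top step (day 3 above day 7) and for Cyp51 at the lowest.

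The enzymes also varied together from array to array. Over the 15 arrays the 36 pairs of enzymes had Pearson correlations from 0.41 to 0.97 with a median of 0.74. With each group's mean removed they ran from -0.31 to 0.95 with a median of 0.54, and 34 of 36 were above 0. Pairs of other genes were not computed, so whether this is particular to the enzymes was not tested. All these arrays share their groups and the first range includes the group differences. Msmo1 followed the mean of the other 8 most closely (0.98, and 0.91 with group means removed) and Ebp least (0.60 and 0.08). At day 7 the spread was wide for Cyp51, at 5.03, 4.77, 5.66 and 6.34, and replicate 4 was the highest for Cyp51, Lss (5.36), Msmo1 (7.67), Hsd17b7 (3.90), Sc5d (7.30), Nsdhl (6.68) and Dhcr7 (8.85). The same array read lowest of its group for Ebp (6.18).

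**Figure D4:**
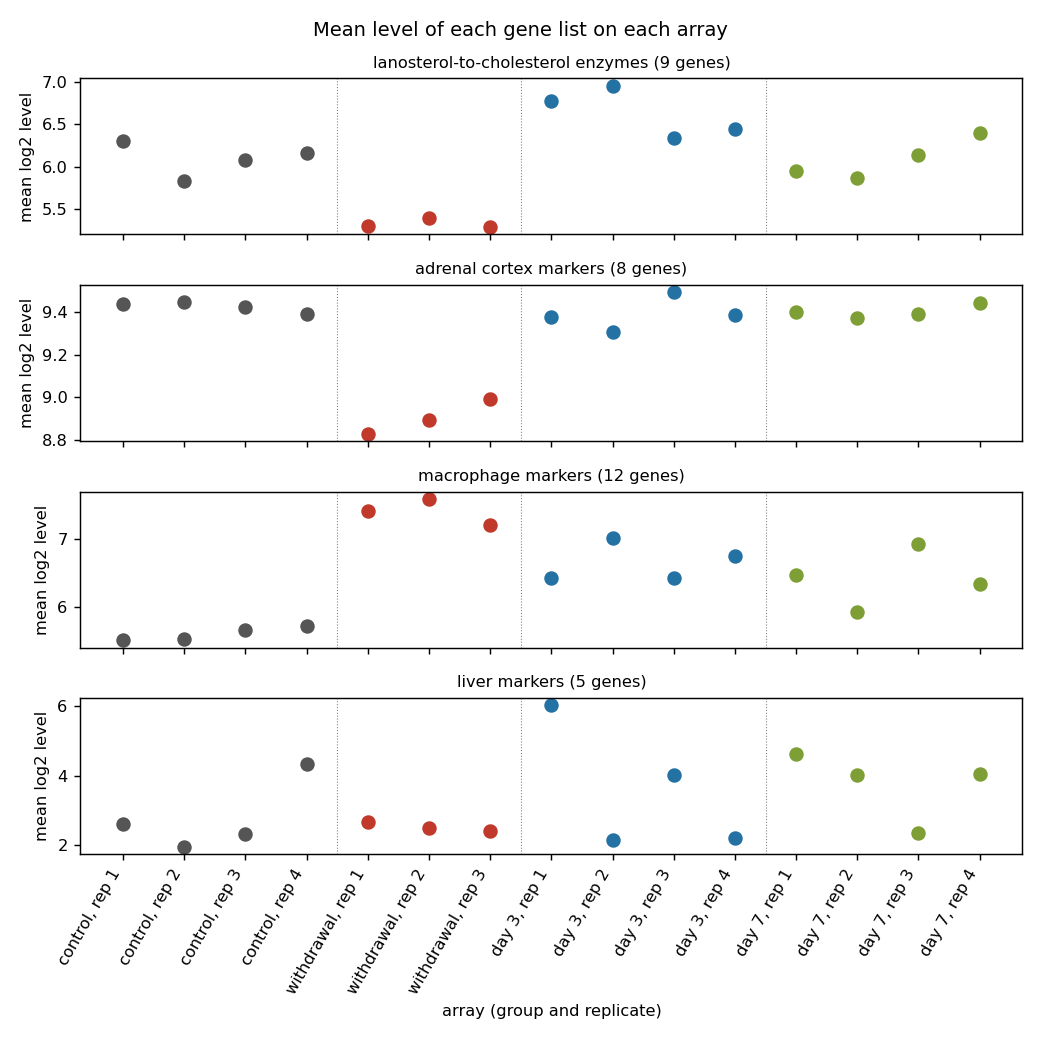
Mean log2 level of the 9 enzymes (top) and of cortical, macrophage and liver markers on each of the 15 arrays; the vertical scales differ and do not start at 0. The enzyme means are lowest on the 3 withdrawal arrays, at 5.28 to 5.39. They are 6.34 to 6.96 at day 3, and day 7 replicate 4, at 6.40, lies within that range. Liver markers are high on 6 arrays spread over 3 groups.

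Lbr, a protein of the inner nuclear membrane, carries the same sterol reductase activity as Tm7sf2 and is not one of the 9. It read 5.18 ± 0.35 (SD, n = 4) in control, 5.02 ± 0.24 (n = 3) at withdrawal, 5.56 ± 0.29 at day 3 and 5.29 ± 0.19 at day 7, and passed in none of the 6 comparisons. Its differences were -0.16 at withdrawal (interval -0.57 to 0.25) and 0.55 from withdrawal to day 3 (0.13 to 0.96; limma, adjusted p = 0.192). The log2 value of Tm7sf2 minus that of Lbr on the same array was -1.08 ± 0.51 (SD, n = 3) at withdrawal and 0.67 ± 0.31 (n = 4) at day 3, a difference of 1.75. An exact permutation test over arrays (two-sided) gave p = 0.0286, the smallest these group sizes allow, and an adjusted p of 0.0857 over the 3 tests made, so it did not pass. It could not have passed unless another of the 3 tests also reached its smallest p. The adjusted value thus does not show whether both genes changed alike. For withdrawal against control the difference was -1.06 (exact p = 0.171, adjusted p = 0.257), and for day 7 against control 0.05 (exact p = 0.886, adjusted p = 0.886).

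Upstream in the route, from acetyl-CoA units to squalene epoxide, 8 of 11 listed genes were measured. The 8 include Ggps1, which branches off and is not itself a step to squalene epoxide. At withdrawal 1 fell, Fdps, which makes farnesyl diphosphate, by 1.72 ± 0.21 (limma, adjusted p = 0.000287), and 0 rose. Limma called 1.81% of all genes as lower there and 2.49% as higher. From withdrawal to day 3 5 rose, where limma called 1.37% of all genes as higher. Among the 5 were Sqle, the epoxidase just before Lss, by 1.95 ± 0.34, and Fdps by 1.93 ± 0.21. Mvd rose by 0.97 ± 0.24 and the mevalonate kinase Mvk by 0.83 ± 0.14. Without the 6 arrays with liver transcripts Fdps alone of these 5 passed (2.07, adjusted p = 0.0399), while Sqle stood at 1.94 (0.0828), Mvd at 1.01 (0.359), Fdft1 at 0.76 (0.25) and Mvk at 0.63 (0.224). The calls of Mvd and Fdft1 held in 2 of the 7 fits without a single array. The median difference over the 8, with Ggps1 (0.04) among them, was 0.78, beside 1.31 for the 9 later enzymes, with no test between them. At day 7 Fdps was still above withdrawal, by 1.49 ± 0.21 (limma, adjusted p = 0.00188), a call lost without the arrays with liver transcripts (1.21, adjusted p = 0.405). Against control 0 passed in limma at day 3 or day 7, where 0.131% and 0.0187% of all genes were called. At day 3 6 had an unadjusted p below 0.05 with day 3 higher, as did 5.28% of all genes. At day 7 the count was 0, beside 5.95% of all genes in either direction.

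Of the genes that control or respond to SREBP, 8 of 10 were measured. Srebf2, which encodes SREBP-2, differed by 0.01 between withdrawal and control (interval -0.52 to 0.54) and by 0.58 from withdrawal to day 3 (0.05 to 1.11; limma, adjusted p = 0.303). Stard4, a sterol carrier, fell by 0.64 ± 0.16 at withdrawal (limma, adjusted p = 0.0361) and rose by 0.78 ± 0.16 by day 3, and Insig1, which holds SREBP in the endoplasmic reticulum and is itself an SREBP target, rose by 1.23 ± 0.19 by day 3 (adjusted p = 0.00368). No other gene of this list passed in these comparisons, where limma called 1.81% of all genes as lower at withdrawal and 1.37% as higher by day 3. The Stard4 calls held in 2 and 3 of the 7 fits without a single array and were both lost without the arrays with liver transcripts (adjusted p = 0.127 and 0.207), where Insig1 still passed (1.19, adjusted p = 0.0345).

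Of 7 genes of the LXR response, by which cells act on sterol excess, 6 were measured. Abca1, an exporter of cholesterol, read 7.54, 7.32, 7.81 and 7.81 in control, 7.05, 7.04 and 7.25 at withdrawal and 5.84, 6.08, 6.17 and 6.01 at day 3. Day 3 lay below both without overlap, at -1.59 ± 0.19 against control (limma, adjusted p = 0.00337) and -1.08 ± 0.20 against withdrawal (adjusted p = 0.0118). Limma called 0.042% and 0.886% of all genes as lower in these comparisons. No other gene of this list passed in them. At day 7 Abca1 read 7.00, 7.27, 7.00 and 6.17, and the low array, replicate 4, is the one on which most of the 9 enzymes were highest in their group. This is a single array. Over the 15 arrays Abca1 and the mean of the 9 enzymes had a Pearson r of -0.58, or -0.42 with group means removed. The exporter Abcg1 and Mylip, a ligase that degrades the LDL receptor, were higher at withdrawal by 1.01 ± 0.27 and 0.92 ± 0.25 (limma, adjusted p = 0.0465 and 0.0495). Limma called 2.49% of all genes as higher there. The other 4 measured genes did not pass at withdrawal. Among them Abca1 was lower, by -0.51 (limma, adjusted p = 0.207), and its groups did not overlap. The median difference of the 6 was 0.07. Abcg1 passed in 1 of the 7 fits without a single array (highest adjusted p = 0.218, without withdrawal replicate 2) and Mylip in 0 (highest adjusted p = 0.187, without withdrawal replicate 3), and neither passed without the arrays with liver transcripts (adjusted p = 0.11 and 0.244). Abcg1 is also expressed by macrophages, whose markers were higher at withdrawal; their part in this value was not tested.

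Outside the 9 enzymes, the genes whose values over the 15 arrays were most like the mean of the members (each centred on its own mean) were Sqle (Pearson r = 0.96), Insig1 (0.95), Mrpl54 (0.93), Timm8b (0.92), Cox14 (0.92), Slc27a3 (0.90), Nuf2 (0.89) and Fdft1 (0.89). They are given as a description, from genes whose mean lay above the median gene, and the correlation includes the group differences. With group means removed the correlation was 0.93 for Fdft1, 0.90 for Sqle, 0.80 for Insig1 and 0.76 for Nuf2. It was 0.70 for Timm8b, 0.62 for Mrpl54, 0.46 for Cox14 and 0.39 for Slc27a3. Fdft1 encodes squalene synthase. Sqle itself read 7.69, 7.56, 6.71 and 6.77 at day 3 and 5.77, 5.71, 6.75 and 6.90 at day 7, the same split of arrays as in Cyp51.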

How the data were processed

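Whole adrenal RNA was measured on 1 Affymetrix array per sample. The deposited values are log2 expression that the authors made with oligo's RMA (per the submitters' processing notes, which state neither version nor filter). Of 32736 probe sets, 22399 carried 1 symbol in the platform annotation, 1607 several and 8730 none. The first kind alone was used, and the probe set with the highest mean was kept for each of 807 genes with several. Levels are means ± SD. Differences are from limma 3.58.1 (R 4.3.3), lmFit and eBayes, with 4 group means fitted over 15 arrays, given ± SE and adjusted by Benjamini-Hochberg over 21439 genes. No batch is named in the labels. The members and gene lists were chosen with earlier results of these data known. Named genes are the 9 members, Lbr, up to 4 passing genes per list and comparison with the largest difference, and the 8 nearest in pattern without predicted genes or clone names; Srebf2 and the 4 promoters printed were picked after their values were seen. Tm7sf2 and Lbr were compared within arrays by an exact permutation test; of 6 tests planned, 3 were run and the adjustment is over these. Promoters come from RefSeq (GRCm38.p6). Alternatives were array scaling, a filter on dim genes, the probe set of largest variance, other moderation, array weights, a replicate block, separate fits and leaving out arrays; the one without arrays of mean liver marker level above 4 was chosen after seeing the data. The fit was tested on simulated data with independent normal noise for each gene, unlike arrays whose genes vary together. It recovered 26.9% to 43.3% of changes of 0.5 on the log2 scale, depending on the comparison, and 77.6% to 86.6% of changes of 1. Changes near 0.5 were thus missed more often than found. Same-numbered samples of different groups did not deviate together (21 pairs, r -0.14 to 0.06), so numbers were not taken as pairs. Nothing says the samples came from separate animals beyond their titles, so p-values measure the spread between these samples, which may be technical.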

Additional observations from a re-analysis of the deposited data

Results flagged for a closer look

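Of 27 sets of 4 arrays checked for a sample far from the rest, 2 were picked out by the gap to the nearest array, and chance alone picks about 1 in 20. Control replicate 1 read 7.72 for Sc5d, above the next control array at 7.13. Control replicate 2 read 7.14 for Msmo1, below the next at 7.40. Without control replicate 1 the Sc5d difference between day 7 and control became 0.041 in place of -0.11.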

How the results depend on the processing

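Leaving out single arrays in turn, the members past the threshold numbered 2 to 4 (withdrawal against control), 6 to 7 (day 3 against withdrawal), 2 to 3 (day 7 against withdrawal) and 0 in the other 3 comparisons, and all genes past it 459 to 774, 209 to 389 and 200 to 415, then 6 to 27 (day 3 against control), 0 to 9 (day 7 against control) and 0 to 7 (day 7 against day 3). With every array the counts of genes were 921, 483, 404, 28, 4 and 0.

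With array median centring 5 members passed for withdrawal against control, and 53 genes for day 3 against control. Cyp51 and Ebp, which did not pass at withdrawal, kept that outcome in 8 of the 9 alternatives other than leaving out single arrays. Their lowest adjusted p-values there were 0.0358 and 0.0458 (limma). The filter on dim genes gave 635 for day 7 against withdrawal and 76 for day 3 against control. Trend and robust gave 91 genes and 2 members for day 3 against control and 2 genes for day 7 against control, and array weights 2 genes for day 7 against day 3. Fitting only the groups compared gave 524, 161, 154, 9 and 0 genes in the first 5 comparisons, and 5 members for day 3 against withdrawal and 2 for day 7 against withdrawal. Without the arrays with liver transcripts 358, 46, 3, 10 and 1 genes passed (the first 4 comparisons and day 7 against day 3), and 2, 4 and 1 members in the first 3. Fewer arrays enter the last 2 kinds of fit; for the others the cause was not tested.

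The replicate numbers are not known to pair the samples, and 0 of 15 arrays correlated best with their own number. With a replicate block 544, 257, 221, 4 and 0 genes passed in the first 5 comparisons, and 2, 6 and 2 members in the first 3.

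Signs turned only for differences that did not pass. They were Ebp at day 3 against control (-0.047 centred), Msmo1 at day 7 against control (-0.015 centred, -0.0104 with array weights), Cyp51 there (-0.0072 with array weights), Dhcr7 at day 7 against day 3 (0.023 centred, 0.087 without liver arrays) and Lbr at day 7 against control (-0.17 without liver arrays). Without single arrays the day 7 difference from control ran from -0.32 to 0.031 for Lss, -0.22 to 0.31 for Cyp51, -0.037 to 0.35 for Tm7sf2, -0.081 to 0.084 for Msmo1, -0.012 to 0.24 for Nsdhl, -0.032 to 0.25 for Hsd17b7, -0.18 to 0.041 for Sc5d and -0.024 to 0.24 for Lbr. Ebp ran from -0.10 to 0.088 at day 3 against control and -0.18 to 0.014 at day 7 against day 3, where Dhcr7 ran from -0.17 to 0.093. Tm7sf2 minus Lbr ran from -1.35 to -0.73, 1.57 to 2.05 and -0.21 to 0.38 in its 3 tests.

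Centring moved the median gene by -0.11 at withdrawal against control, and the share of calls that were higher from 58.0% to 28.6%; it moved from 52.0% to 74.5% for day 7 against withdrawal and from 67.9% to 34.0% for day 3 against control. All 9 members lay above the median gene in every group. That gene is not a measure of background, so whether background limited any of them was not tested.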
